A study of Homo sapiens with 6 samples.

Results

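The colony-stimulating factors, the cytokine IL34 and their receptors were examined in U87 cells, an established human glioblastoma line, with and without knockdown of CHRM3, the M3 muscarinic acetylcholine receptor. The 8 genes were chosen by family membership, with the knockdown against control values of these same libraries already known, and make up 8 of the 61731 genes and loci in the deposited table. They comprise 4 ligands (CSF1, IL34, CSF2 and CSF3) and 4 receptor chains (CSF1R, CSF2RA, CSF2RB and CSF3R). Because this contrast was in view when they were chosen, their values are given as a description, with no p-value, and where they stand against the limits used for all genes is no evidence of a difference.

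The series holds 6 libraries of total RNA from U87 cells. Of these, 3 carry the label CHRM Knockdown (KD) and 3 the label Normal control (NC), which the study calls the negative control. The study made the knockdown with lentivirus, lists several knockdown sequences and names the most efficient of them. The labels do not say which of them the KD libraries carried. Whether the 3 KD libraries carried the same sequence is not given either, so their SD may include differences between sequences. The labels do not give the cultures behind the replicates of a group, so p-values measure only the spread between these libraries, which may be technical. The values are in TPM, the share of a library's transcripts that a gene takes after correction for transcript length, scaled to the same sum in each library. This unit keeps no read depth, so the depth is unknown.

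The level of CHRM3 was 0.02, 0.09 and 0.13 TPM in NC replicates 1, 2 and 3 and 0.13, 0.01 and 0.02 TPM in KD replicates 1, 2 and 3, so its groups overlapped and a reduction was not detectable (exact two-sided permutation test, p = 0.8, where 3 against 3 can give no p below 0.1). These CHRM3 values lie close to the rounding step of 0.01 TPM in the NC libraries as well, so the KD labels cannot be checked from them. The study itself reports efficient knockdown of CHRM3 in U87 cells, shown apart from its transcriptome data. Directions below are those of the libraries labelled KD. Among markers of glioma and neural lineage, VIM, CD44 and TNC were abundant, with 6574 ± 77.2, 597.3 ± 21.6 and 509.1 ± 16.2 TPM in the NC libraries and 7376 ± 114.7, 473.5 ± 12.6 and 414.4 ± 11.4 TPM in the KD libraries (SD, n = 3 each, limma adjusted p = 0.000416, 0.000529 and 0.000687), whereas SOX2 stayed at or below 0.09 TPM, OLIG2 at or below 0.56 TPM and GFAP at or below 1.46 TPM in all 6 libraries. The less abundant CHI3L1 and NES were higher in KD (log2 difference 0.42 and 0.50, limma adjusted p = 0.000305 and 0.0151). Of the 9 such markers, 6 were tested, with 2 lower and 3 higher at an adjusted p under 0.05. Over all tested genes 24.0% were lower and 12.1% higher. Of 17 leukocyte markers, CD68, a lysosomal protein abundant in macrophages, was the only one above 0.39 TPM in any library. CD68 was 251.0 ± 2.20 TPM in NC and 172.7 ± 3.66 TPM in KD (SD, n = 3 each, log2 difference -0.54, limma adjusted p = 2.0e-05), and its part in the results below was not tested. The other 16, PTPRC, AIF1 and TYROBP among them, summed to 0.48 to 1.03 TPM in the NC libraries and 0.21 to 1.22 TPM in the KD libraries, and 6 of them were listed at 0 in every library.

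Colony-stimulating factors are secreted cytokines that drive the production, survival and activation of myeloid cells. CSF1 and IL34 both bind CSF1R, a receptor tyrosine kinase of macrophages and microglia. CSF2 (GM-CSF) acts through the alpha chain CSF2RA and the beta chain CSF2RB, which the receptors for IL3 and IL5 also use, and CSF3 (G-CSF) acts through CSF3R on neutrophil precursors. In glioblastoma, tumour cells are a known source of these factors, and the macrophages and microglia of the tumour carry their receptors.

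In the KD libraries, the mRNAs of CSF2 and CSF3 were 9.49-fold and 4.28-fold lower than in the NC libraries, by the ratio of mean TPM, while those of CSF1 and CSF1R were 1.24-fold and 1.68-fold higher. The remaining 4 genes, IL34, CSF2RA, CSF2RB and CSF3R, were under 0.5 TPM in every library. The groups did not overlap for CSF1, CSF2, CSF3 and CSF1R, as for 50.2% of all genes whose mean reached 1 TPM. They did overlap for IL34 and CSF2RA, and CSF2RB and CSF3R were listed at 0 throughout. In RNA from a whole culture, fewer cells making an mRNA and less of it per cell cannot be told apart.

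**Figure D1:**
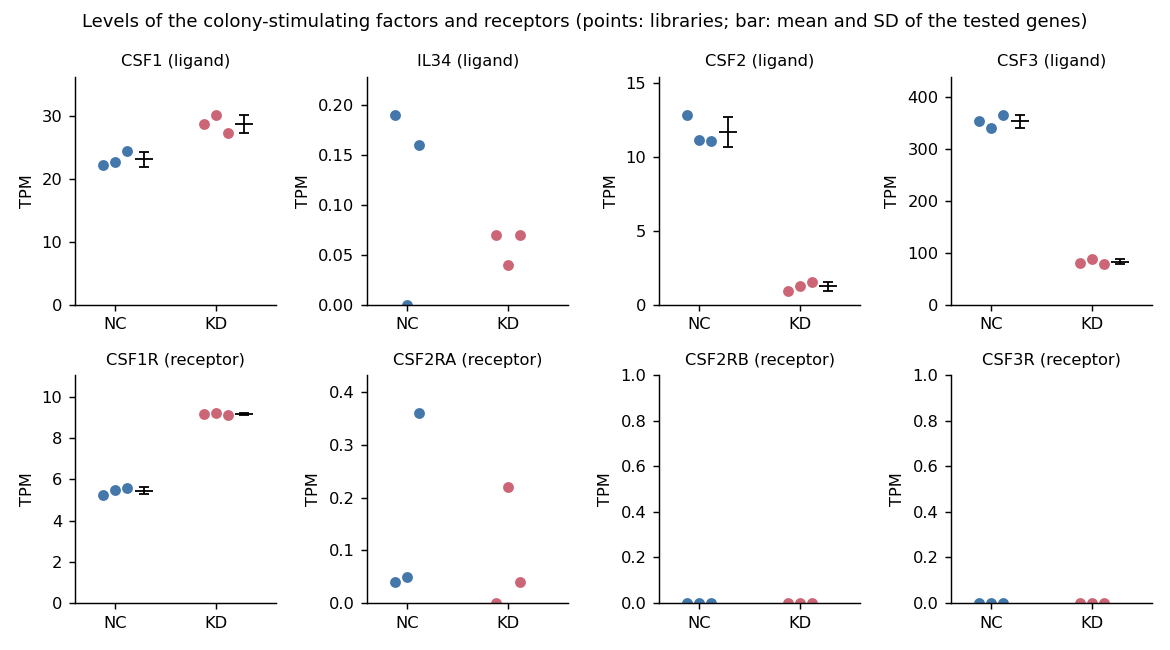
TPM of each of the 8 genes (y axis, each panel with its own scale from 0) in the NC and KD libraries. Points are the 3 libraries of a group, and the bar beside them is the mean and SD, drawn for the 4 genes whose mean reached 1 TPM. CSF2 and CSF3 sit lower in all 3 KD libraries, CSF1 and CSF1R higher, and CSF2RB and CSF3R lie at 0.

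CSF3 was the most abundant of the 8 genes. Its TPM was 353.95, 339.97 and 365.55 in NC replicates 1, 2 and 3 and 81.12, 87.92 and 78.73 in KD replicates 1, 2 and 3. The lowest NC library lay far above the highest KD library, and within each group the libraries differed by only a few percent (coefficient of variation 3.63% in NC and 5.77% in KD). The mean went from 353.2 ± 12.8 to 82.6 ± 4.77 TPM (SD, n = 3 each). The log2 difference, KD minus NC on the scale of log2(TPM + 1) as fitted by limma, was -2.08 with a standard error of 0.0474. Ordered by mean TPM over the 6 libraries, CSF3 stood at place 663 of the 13722 genes whose mean reached 1 TPM.

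CSF2 was far less abundant and differed more. Its TPM was 12.83, 11.13 and 11.05 in NC replicates 1, 2 and 3, against 0.94, 1.23 and 1.52 in KD replicates 1, 2 and 3. All 3 KD libraries lay near 1 TPM and far below the NC libraries, with a wider relative spread (coefficient of variation 23.6%, against 8.62% in NC). The mean went from 11.7 ± 1.01 to 1.23 ± 0.29 TPM (SD, n = 3 each). Its log2 difference was -2.51 with a standard error of 0.119, which understates the TPM ratio because 1 was added to each value. With 0.1 added instead, the log2 difference was -3.17. Among the 13722 tested genes, CSF2 had the 22nd lowest log2 difference and CSF3 the 44th lowest. The level of CSF3 was 30.4 ± 2.75 times that of CSF2 in the NC libraries and 69.9 ± 17.3 times in the KD libraries (SD, n = 3 each), so the ratio between these factors also differed, with no overlap between the groups.

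CSF2 lies on chromosome 5 from 132073790 to 132076170 on the plus strand, and CSF3 on chromosome 17 from 40015361 to 40017813 on the plus strand (GENCODE 29, GRCh38). No other annotated gene overlaps either of them. The CSF2 promoter is shown because CSF2 differed most of the 8 genes and its start region has a well-studied cytokine element. The window holds 250 bases before the RefSeq start and 50 from it on (chr5:132073539-132073838, plus strand, GRCh38.p14). Capitals mark motif matches.

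CSF2 promoter: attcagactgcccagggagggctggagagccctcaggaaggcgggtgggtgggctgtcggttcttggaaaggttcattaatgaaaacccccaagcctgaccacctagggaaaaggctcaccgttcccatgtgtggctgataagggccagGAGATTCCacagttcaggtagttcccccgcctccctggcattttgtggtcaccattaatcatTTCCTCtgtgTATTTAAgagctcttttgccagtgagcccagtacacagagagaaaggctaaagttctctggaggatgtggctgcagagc

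From 5′ to 3′ these are GAGATTCC, the first part of the CK-1 element known from cytokine promoters, 101 bases before the start, then GAGGAA, an ETS core of the PU.1 type, on the opposite strand 39 bases before the start (so the capitals show its reverse complement), and the TATA-type box TATTTAA 29 bases before the start. Of the 35116 RefSeq windows of this length, 0.869% hold GAGATTCC on either strand, 27.9% hold GAGGAA and 4.52% hold TATTTAA. Neither the NF-kB consensus (in 11.3% of windows), the AP-1 letters TGANTCA (7.71%), the C/EBP letters TTNNGNAA (36.8%) nor TATAAA (11.5%) was found in this CSF2 window. The search took exact letters, here and in the windows below. A site that departs from those letters is not counted, so a missing match does not show that a site is absent. The matches describe the sequence and were not tested as binding sites. The table of windows held 4 of the 8 genes, CSF2, CSF1R, CSF2RA and CSF3R.

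The mRNAs of CSF2 and CSF3 also carry AU-rich elements in the 3′ untranslated region, which are known to shorten the life of cytokine mRNAs through proteins such as ZFP36. For each gene the longest 3′ untranslated region among its GENCODE 29 coding transcripts was searched for the pentamer ATTTA, with overlapping matches counted. CSF2 held 8 in 318 bases and CSF3 held 7 in 854 bases, against 4 in 2154 bases for CSF1 and 0 in 778 bases for CSF1R. Of the 19084 genes with such a region, 0.115% had a density at least as high as that of CSF2, 2.13% at least as high as that of CSF3 and 43.4% at least as high as that of CSF1. The nonamer TTATTTATT was present 3 times in CSF2 and in 8.22% of all regions, and in no other of the 8 genes. The counts describe the sequences, and whether mRNA decay differed between KD and NC was not tested. The 30 bases richest in ATTTA of the CSF2 and CSF3 mRNAs are shown, with the pentamers in capitals (chr5:132076072-132076101 for CSF2 and chr17:40016975-40017004 for CSF3, plus strand, GRCh38).

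CSF2 element: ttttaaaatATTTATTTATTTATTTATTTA
CSF3 element: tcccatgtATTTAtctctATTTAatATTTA

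The other ligands bind CSF1R. The TPM of CSF1 was 22.17, 22.7 and 24.45 in NC replicates 1, 2 and 3 and 28.7, 30.16 and 27.24 in KD replicates 1, 2 and 3. Every KD library lay above every NC library, by a margin close to the spread within the groups. The mean was 23.1 ± 1.19 TPM in NC and 28.7 ± 1.46 TPM in KD (SD, n = 3 each), and the log2 difference was 0.30 with a standard error of 0.055. The level of IL34 was 0.19, 0 and 0.16 TPM in the NC libraries and 0.07, 0.04 and 0.07 TPM in the KD libraries. Its values lie close to the rounding step of 0.01 TPM, the groups overlapped, and it was not tested.

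Together the ligands summed to 389.14, 373.8 and 401.21 TPM in NC replicates 1, 2 and 3 and to 110.83, 119.35 and 107.56 TPM in KD replicates 1, 2 and 3. The sum was 3.45-fold lower in the KD libraries by the ratio of means. CSF3 made up 91.0% ± 0.0916 of it in NC and 73.4% ± 0.272 in KD (SD, n = 3 each). CSF1 made up 5.95% ± 0.223 in NC and 25.5% ± 0.346 in KD, and CSF2 3.01% ± 0.273 in NC and 1.10% ± 0.288 in KD (SD, n = 3 each). Thus the ratio of CSF3 to CSF1 mRNA went from 15.3 ± 0.578 to 2.88 ± 0.0457 (SD, n = 3 each).

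**Figure D2:**
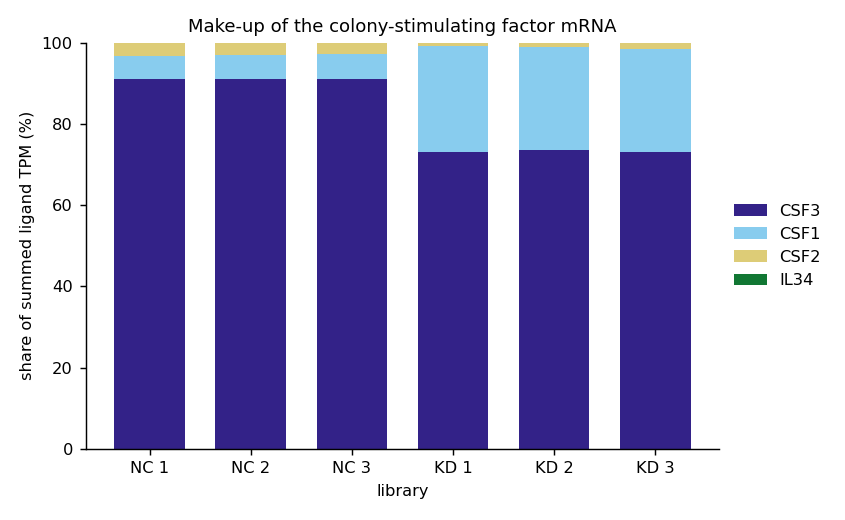
Share of the summed TPM of the 4 ligands (y axis, percent) held by CSF3, CSF1, CSF2 and IL34 in each of the 6 libraries (x axis). CSF3 holds about 91.0% in the NC libraries and 73.4% in the KD libraries, and the share of CSF1 is larger in all 3 KD libraries. IL34 is too small to be seen.

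Of the receptors, only CSF1R was above 0.5 TPM. Its TPM was 5.26, 5.48 and 5.59 in NC replicates 1, 2 and 3 and 9.17, 9.2 and 9.13 in KD replicates 1, 2 and 3. The KD libraries were nearly equal to each other and all lay above the NC libraries. The mean went from 5.44 ± 0.168 to 9.17 ± 0.0351 TPM (SD, n = 3 each). The fitted log2 difference was 0.66, with a standard error of 0.0532. The mRNA of the ligand CSF1 was 4.24 ± 0.118 times as abundant as that of its receptor in NC and 3.13 ± 0.147 times in KD (SD, n = 3 each). Microglia and macrophages are the usual cells with CSF1R, and SPI1, the transcription factor PU.1 that drives it there, stayed at or below 0.15 TPM in all 6 libraries.

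CSF2RA was 0.04, 0.05 and 0.36 TPM in NC replicates 1, 2 and 3 and 0, 0.22 and 0.04 TPM in KD replicates 1, 2 and 3, with overlapping groups in which single libraries stood out. CSF2RA lies in the pseudoautosomal region of chromosomes X and Y. CSF2RB and CSF3R were each listed at 0 TPM in all 6 libraries. For CSF2 and CSF3 the ligand mRNA was thus present with its signalling receptor chain listed at 0, and for CSF1 both ligand and receptor mRNA were measured. How far a listed 0 lies from a low level is not known, since the depth is unknown.

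CSF1R is on the minus strand of chromosome 5 from 150053291 to 150113372, and RefSeq gives 2 starts for it. The pseudogene RPL7P1 and the small RNA RF00019 overlap it on the other strand. Both windows are shown since CSF1R was the receptor detected, and the start in use cannot be read from gene totals. The outer start is at 150113365 and the inner at 150086554. The windows are chr5:150113316-150113615 and chr5:150086505-150086804 (minus strand, GRCh38.p14), with motif matches in capitals.

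CSF1R outer start: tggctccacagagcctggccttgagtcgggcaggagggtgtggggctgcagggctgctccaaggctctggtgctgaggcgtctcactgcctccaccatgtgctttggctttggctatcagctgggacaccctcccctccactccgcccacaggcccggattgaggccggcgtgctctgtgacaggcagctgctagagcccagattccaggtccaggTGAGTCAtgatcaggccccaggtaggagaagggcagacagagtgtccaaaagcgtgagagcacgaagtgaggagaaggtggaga
CSF1R inner start: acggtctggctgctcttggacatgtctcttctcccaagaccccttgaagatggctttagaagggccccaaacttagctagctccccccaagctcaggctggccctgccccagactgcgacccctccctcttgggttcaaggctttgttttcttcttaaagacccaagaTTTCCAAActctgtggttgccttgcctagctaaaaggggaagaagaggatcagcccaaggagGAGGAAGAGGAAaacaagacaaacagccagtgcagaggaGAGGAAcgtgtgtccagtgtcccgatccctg

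The outer window held 1 match, to the AP-1 letters TGANTCA, 34 bases before the start. The inner window, which lies at the start known from macrophages, held GAGGAA 3 times, from 20 and 14 bases before the start and 19 bases after it, and the C/EBP letters once on the opposite strand. Neither window held the NF-kB consensus, GAGATTCC, TATTTAA or TATAAA.

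The outer start of CSF1R lies just downstream of another receptor tyrosine kinase gene. PDGFRB, which encodes the platelet-derived growth factor receptor beta, is on the same strand, and its annotated end is 464 bases from CSF1R. PDGFRB was 5.30, 5.50 and 5.51 TPM in NC replicates 1, 2 and 3 and 12.02, 9.67 and 8.62 TPM in KD replicates 1, 2 and 3. Its log2 difference was 0.78 and its limma adjusted p was 0.00271. Both CSF1R and PDGFRB were thus higher in KD, while PDGFRB varied more between the KD libraries (coefficient of variation 17.2%) than CSF1R (0.383%). On the other side, HMGXB3 ends 148 bases from CSF1R on the opposite strand and was 32.6 ± 1.14 TPM in NC and 33.1 ± 1.21 TPM in KD (SD, n = 3 each, limma adjusted p = 0.718). The strand used in counting is not given in the sources used here, and whether reads from PDGFRB transcripts were counted for CSF1R was not tested.

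The coding genes beside CSF3 were lower too, by far less. PSMD3, a proteasome subunit, went from 224.2 ± 1.18 to 173.1 ± 3.11 TPM (SD, n = 3 each), a log2 difference of -0.37 (limma adjusted p = 6.39e-05). MED24, a Mediator subunit, went from 52.4 ± 1.43 to 38.4 ± 0.847 TPM (SD, n = 3 each), a log2 difference of -0.44 (limma adjusted p = 0.000225). Next to CSF2, IL3 was listed at 0 TPM in all 6 libraries. On the other side, P4HA2, an enzyme of collagen synthesis 115667 bases from CSF2, had a log2 difference of -0.10 (limma adjusted p = 0.0227). AHCYL1, 53693 bases from CSF1, had a log2 difference of -0.08 (limma adjusted p = 0.27).

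**Figure D3:**
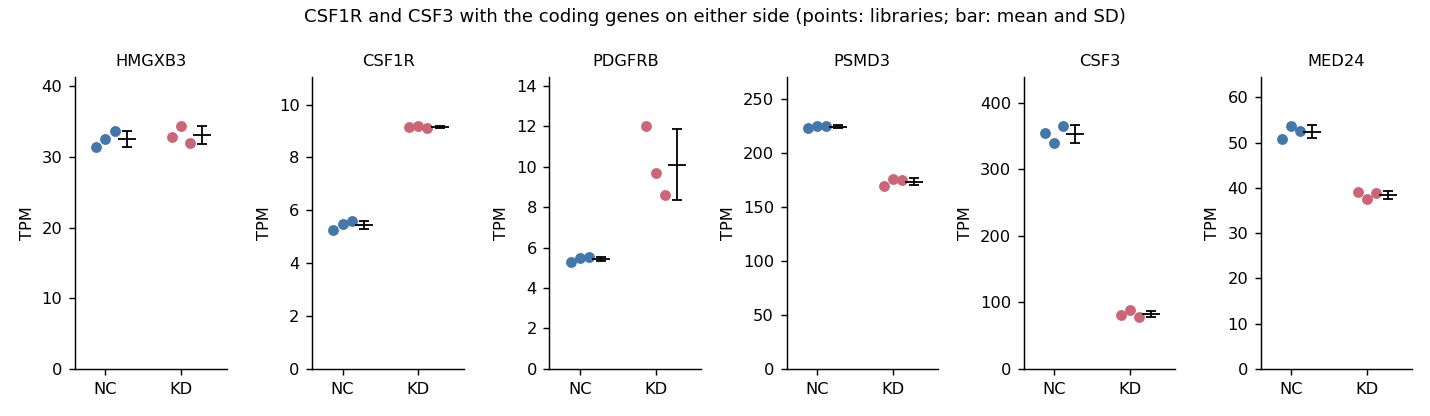
TPM (y axis, each panel from 0) of CSF1R and CSF3 and of the nearest coding gene on either side, in the NC and KD libraries. Points are libraries, and the bar is the mean and SD of 3. PDGFRB is higher in KD like CSF1R, HMGXB3 is not, and PSMD3 and MED24 are lower in KD by much less than CSF3.

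Across all genes, differences between KD and NC were fitted with limma on log2(TPM + 1) for the 13722 genes whose mean TPM reached 1. Of the 8 genes, 4 passed that limit. CSF2 and CSF3 were past both an adjusted p of 0.05 and a log2 difference of 1 and lower, as were 1.2% of all tested genes. None of the 8 was higher past both limits, as 0.67% of all tested genes were. CSF1 and CSF1R were higher past the adjusted p alone, as were 12.1% of tested genes, while 24.0% of tested genes were lower past it. The 8 genes were chosen with these values known, so nothing is read from these counts. The 4 lay on both sides of the median over all tested genes, which was -0.06.

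For CSF2, CSF3 and CSF1R, whose log2 difference exceeded 0.5 in size, the genes with the most similar pattern over the 6 libraries were found by the smallest root mean square difference of centred log2(TPM + 1). For CSF3 these were IL36RN, an antagonist of the interleukin-36 receptor, TFPI2, a protease inhibitor, and the chemokine gene CXCL8, with differences of 0.0444, 0.0574 and 0.0859. IL36RN went from 111.2 ± 0.578 to 25.1 ± 0.443 TPM, and TFPI2 from 1413 ± 22.5 to 331.8 ± 8.54 TPM (SD, n = 3 each). For CSF2 they were DCN, the proteoglycan decorin, the non-coding LINC01326 and the cytokine gene IL36B, with differences of 0.108, 0.14 and 0.143. DCN went from 61.2 ± 1.86 to 9.09 ± 1.75 TPM and IL36B from 329.5 ± 3.39 to 63.9 ± 2.48 TPM (SD, n = 3 each). LINC01326 went from 5.17 ± 0.43 to 0.217 ± 0.194 TPM (SD, n = 3 each). The added 1 compresses the low KD values of CSF2 and LINC01326. A small difference from CSF2 on this scale therefore does not mean a like ratio of TPM. For CSF1R they were the tubulin gene TUBA1A, the lysyl oxidase LOXL1 and TUBB3, with differences of 0.025, 0.0275 and 0.0297. Pearson's r with the respective factor or receptor was between 0.995 and 0.999 for these 9 genes over the 6 libraries, which fall into 2 groups, and is given as a description.

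The surrounding pathway was covered by 5 lists of 81 genes, none of them among the 8. Of the 58 that were tested, 18 were lower and 10 higher at a limma adjusted p under 0.05, and 30 did not pass. Over all tested genes 24.0% were lower and 12.1% higher past it. Nothing particular to the lists is read from these counts or from those of the single lists below. With median-of-ratios scaling the split was 12 lower and 14 higher, and without NC replicate 2 only 18 passed in all. In every one of the 14 alternative fits, 18 of the 28 passed.

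The list of inducers of colony-stimulating factors also held receptors of the inducers, transcription factors and the inhibitor NFKBIA. Of its 21 tested genes, 7 were lower and 4 higher, with a median log2 difference of -0.11 against -0.06 over all genes. IL1B, a strong inducer of CSF2 and CSF3 in many cells, was 136.24, 137.41 and 140.14 TPM in NC replicates 1, 2 and 3 and 14.29, 15.52 and 14.67 TPM in KD replicates 1, 2 and 3, with a log2 difference of -3.13 (limma adjusted p = 1.43e-07). Its receptor gene IL1R1 was 18.1 ± 0.286 TPM in NC and 20.2 ± 0.843 TPM in KD (SD, n = 3 each, limma adjusted p = 0.0383), and lost the threshold in 8 of the 14 alternatives. NFATC2, a factor that acts on the CSF2 promoter in T cells, fell from 5.33 ± 1.41 to 2.57 ± 0.117 TPM (limma adjusted p = 0.0104), and NFKB2 from 34.7 ± 1.79 to 24.4 ± 2.35 TPM (SD, n = 3 each, limma adjusted p = 0.00307). NFKBIA, the feedback inhibitor of NF-kB, fell by 0.28 on the log2 scale (limma adjusted p = 0.00213). CEBPD rose from 8.06 ± 0.604 to 12.8 ± 1.80 TPM (SD, n = 3 each, limma adjusted p = 0.0053). FOS, a subunit of AP-1, rose by 0.41 on the log2 scale (limma adjusted p = 0.000857). NFKB1 was 16.4 ± 0.54 TPM in NC and 15.8 ± 0.575 TPM in KD (SD, n = 3 each, limma adjusted p = 0.389). RELA, another NF-kB subunit, fell from 81.2 ± 1.89 to 71.0 ± 2.95 TPM (SD, n = 3 each, limma adjusted p = 0.00934). It passed in every alternative fit. TNF stayed at or below 0.39 TPM.

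Of the 10 genes for proteins that bind AU-rich mRNA or take part in mRNA decay more broadly, 4 were lower and 2 higher (median log2 difference -0.06). ZC3H12A, the ribonuclease Regnase-1, fell from 55.2 ± 1.96 to 28.3 ± 0.631 TPM, a log2 difference of -0.94 (SD, n = 3 each, limma adjusted p = 1.85e-05). ELAVL1, the stabilising protein HuR, fell from 75.9 ± 3.52 to 60.3 ± 2.64 TPM (limma adjusted p = 0.00259), and the decay factors KHSRP and CNOT1 fell by 0.24 and 0.28 on the log2 scale (limma adjusted p = 0.00948 and 0.0124). ZFP36, which directs decay of CSF2 mRNA, rose from 22.0 ± 1.01 to 28.8 ± 0.79 TPM (SD, n = 3 each, limma adjusted p = 0.00128). ZFP36L1 had a log2 difference of 0.11 and lost the threshold in 7 of the alternatives. Whether any of these genes bears on the levels of CSF2 or CSF3 mRNA was not tested.

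Downstream of the receptors, 5 of 17 tested signalling genes were lower and 1 higher, with a median log2 difference of 0.04. STAT3, through which the CSF3 receptor signals, rose from 27.5 ± 0.531 to 33.7 ± 1.99 TPM (SD, n = 3 each, limma adjusted p = 0.00571). JAK1 fell from 68.8 ± 0.782 to 59.2 ± 0.841 TPM and SHC1 from 151.2 ± 3.56 to 124.5 ± 3.68 TPM (SD, n = 3 each, limma adjusted p = 0.00124 and 0.000887). JAK2 went the other way, from 2.09 ± 0.0321 to 3.09 ± 0.646 TPM (SD, n = 3 each, log2 difference 0.39, limma adjusted p = 0.0583). It did not pass in the main fit but did in some alternatives. TYK2 had a log2 difference of -0.27 and lost the threshold in 10 of the 14 alternatives, both scalings and 5 of the 6 fits without a library among them. SOCS3, a feedback inhibitor induced by STAT3, was 30.9 ± 0.354 TPM in NC and 31.8 ± 0.826 TPM in KD (SD, n = 3 each, limma adjusted p = 0.43). CISH and SOCS2, feedback genes driven by STAT5 after CSF2, stayed at or below 0.5 and 0.22 TPM.

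Of 13 related ligands and receptors, 6 were tested, with 2 lower and 2 higher. Besides PDGFRB, KITLG, the ligand of the receptor KIT, had a log2 difference of 0.22 (limma adjusted p = 0.0169), and ADAM17, a protease that releases membrane-bound CSF1, one of -0.37 (limma adjusted p = 0.0312). Neither was past the threshold in all alternatives, nor was SDC1 (log2 difference -0.09). KIT, FLT3, IL3 and IL5RA were listed at 0 in all 6 libraries. Of 10 myeloid transcription factors, 4 were tested and 1, KLF4, was higher (log2 difference 0.50, limma adjusted p = 0.0219), a call lost in 6 alternatives. RUNX1 was 19.7 ± 1.74 and 19.7 ± 0.648 TPM (SD, n = 3 each), and CEBPA was listed at 0 in all 6 libraries.

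**Figure D4:**
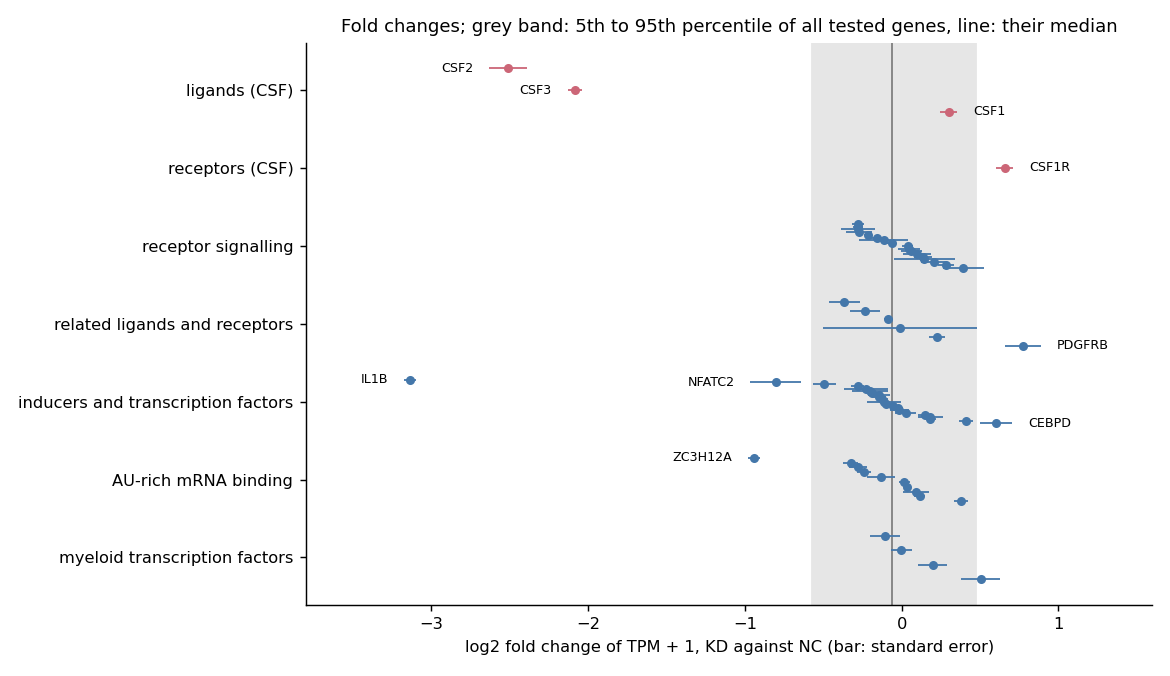
Log2 difference of TPM + 1, KD against NC (x axis, bars: standard error), of the 4 colony-stimulating factors and receptors whose mean reached 1 TPM and of the tested genes of the 5 pathway lists (y axis). The grey band spans the 5th to 95th percentile of all 13722 tested genes and the line is their median of -0.06. CSF2, CSF3, IL1B, ZC3H12A and NFATC2 lie left of the band, and CSF1R, PDGFRB, CEBPD and KLF4 right of it.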

How the data were processed

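Total RNA of 6 U87 libraries was sequenced. The submitters' processing notes name fastp, RSEM and the build GRCh38.p13; the aligner, the annotation and the filters are not given in the sources used here. The authors deposited TPM with 2 decimals for 61731 genes and loci in every library. TPM keeps no read depth, so no counting interval is given. Columns were matched to samples by title, and 0 columns were left over. Of 61541 Ensembl identifiers, 61369 had a symbol. The study gives no test specific to the transcriptome.

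After adding 1 and taking log2, TPM were fitted by group in limma 3.58.1 (R 4.3.3, eBayes with a mean-variance trend). Tests covered the 13722 genes whose mean reached 1 TPM, with Benjamini-Hochberg adjustment over all of them. The fit was tested on simulated data. CHRM3 was compared with an exact permutation test in scipy 1.17.1. The members and lists were chosen with earlier results of these data known, and motifs and neighbours after values were seen. Named list genes are those past both limits and, up to 6 a list, those of largest fold change past the adjusted p, and further list genes are named as values for their role. Some list genes that the rule names are not reported here. Alternatives varied the pseudocount, the limit on low values, the scaling, the variance trend, the replicate number as a block, and the libraries kept. Promoter windows are from RefSeq (GRCh38.p14), and gene positions and untranslated regions from GENCODE 29.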

Additional observations from a re-analysis of the deposited data

How the results depend on the processing

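The log2 fold changes of the members, a description since they were chosen on these libraries, kept their sign in all 14 alternative fits and ranged from -3.17 to -2.42 for CSF2, -2.13 to -2.01 for CSF3, 0.27 to 0.38 for CSF1 and 0.64 to 0.74 for CSF1R. The number of genes called over the whole table was 256 and became 399 with a pseudocount of 0.1 TPM. Across the fits that each left out a library it was 236 to 261. The 28 listed pathway genes past the threshold became 18 to 24 in those fits, lowest without NC replicate 2, and the cause was not tested. With the replicate number as a replicate block, 257 genes were called and 22 listed genes passed. The deviations of libraries with the same number correlated between -0.0198 and 0.0341, so the numbers gave no sign of pairing.

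The median log2 fold change of all tested genes, -0.06, became 0.0035 with median-of-ratios scaling and 0.00011 with quantile normalization, which centre it near 0. All tested genes past the adjusted p were then 49.1% and 50.1% lower instead of 66.5%, and listed genes 46.2% in both instead of 64.3%. The unknown depth limits what can be said of IL34, CSF2RA, CSF2RB and CSF3R, and of CSF2 in the KD libraries.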
